A study of Mus musculus with 11 samples.

Results

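The early passage cultures are the 5 of the 11 RNA-seq libraries whose sample titles give passage 2, 3 or 4. They are intestinal organoids, grown in a gel from the crypts of Lgr5-EGFP-IRES-creERT2 mice, in which a green fluorescent protein and an inducible Cre recombinase sit at the Lgr5 locus, so every library carries that allele and no wild-type culture stands beside it. Mouse_283 gave passages 2, 3 and 4, and mouse_285 gave passages 2 and 4. The labels name the tissue as small intestine epithelium and no treatment. The protocol speaks of mice aged 4 and 24 months and of small intestine and colon, and the labels tie neither age nor gut segment to an animal. Crypts were embedded in Matrigel with IntestiCult medium, the medium was changed every 48 hr, and cultures were broken up and replated every 7 days. The deposited counts were expressed as counts per 1000000 gene-assigned reads (CPM), with library sizes scaled by edgeR's TMM factors, and, for comparison between genes, as CPM per kilobase of transcript. Since the titles give 1 library per animal and passage, and do not say that passages were independent cultures, the p-values below measure only the spread between these 5 libraries.

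Intestinal organoids are closed epithelial cysts with budding crypts. Stem cells marked by Lgr5 divide under Wnt and Notch signals, Paneth cells beside them secrete antimicrobial peptides and Wnt ligands, and daughter cells mature into absorptive enterocytes, mucus-secreting goblet cells and hormone-secreting enteroendocrine cells. After crypts are cut from the gut and plated, the epithelium is known to pass through a repair-like state that shares genes with the fetal gut, among them Clu and Ly6a, before crypts bud again. The 5 libraries allow the first passages after plating to be followed in 2 animals.

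The libraries held 15524025, 25604178 and 28555587 gene-assigned reads at passages 2, 3 and 4 of mouse_283 and 17081618 and 20039957 at passages 2 and 4 of mouse_285, so 3 reads correspond to between 0.109 and 0.167 CPM. The passage 2 library of mouse_283 stood apart in its reads outside annotated genes, at 11.7% against 3.77% to 6.64% in the others. Its reads from the mitochondrial chromosome made up 5.09% of gene reads, against 3.81% at passage 2 of mouse_285 and 1.05% to 2.44% in the 3 later libraries. Ribosomal protein genes took 8.15% of gene reads in that library, 16.7% and 14.5% at passages 3 and 4 of mouse_283, and 10.7% and 11.2% at passages 2 and 4 of mouse_285. The part these library properties play in the differences below was not tested.

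All 5 libraries had the transcript make-up of an epithelium. Epcam, an adhesion protein of epithelial cells, stood at 902, 570 and 981 CPM at passages 2, 3 and 4 of mouse_283 and at 1089 and 831 CPM at passages 2 and 4 of mouse_285. Vil1, which bundles actin in microvilli, ranged from 648 to 885 CPM, and Cdx2, the transcription factor of intestinal identity, from 163 to 420 CPM. The 30 enterocyte genes summed to between 5835 and 7609 CPM per library, the goblet cell markers to between 3546 and 8178, the stem cell markers to between 1778 and 4232, the Paneth cell markers to between 1646 and 4003 and the enteroendocrine markers to between 774 and 1229. Tuft cell markers summed to only 27.6 to 39.2 CPM. Markers of absorptive and secretory cells were thus read in every library, from passage 2 to passage 4.

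Markers of cells outside the epithelium were low or at 0. The 20 immune cell markers summed to between 11.5 and 22.7 CPM, and 7 of them, including Ptprc, Cd3g, Cd4, Cd8a, Gzmb and Tyrobp, had no read in any of the 5 libraries. Smooth muscle markers summed to between 0.900 and 3.29 CPM and endothelial markers to between 3.65 and 11.0. The fibroblast and matrix-cell list summed to between 169 and 384 CPM, and Gsn, at 85.1 to 196 CPM, and Fbln1, at 66.3 to 184 CPM, carried most of it, whereas Dcn, Lum and Thy1 had no read in any library. Gata4, a transcription factor of the upper small intestine, was present at 226 to 335 CPM, Fabp6, the bile acid binder of the ileum, was at or below 0.0558 CPM in every library, and the colonic carbonic anhydrases Car1 and Car4 had no read. A count of 0 allows a level of up to 0.109 to 0.167 CPM (3 reads), depending on the library, from counting error alone.

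**Figure D1:**
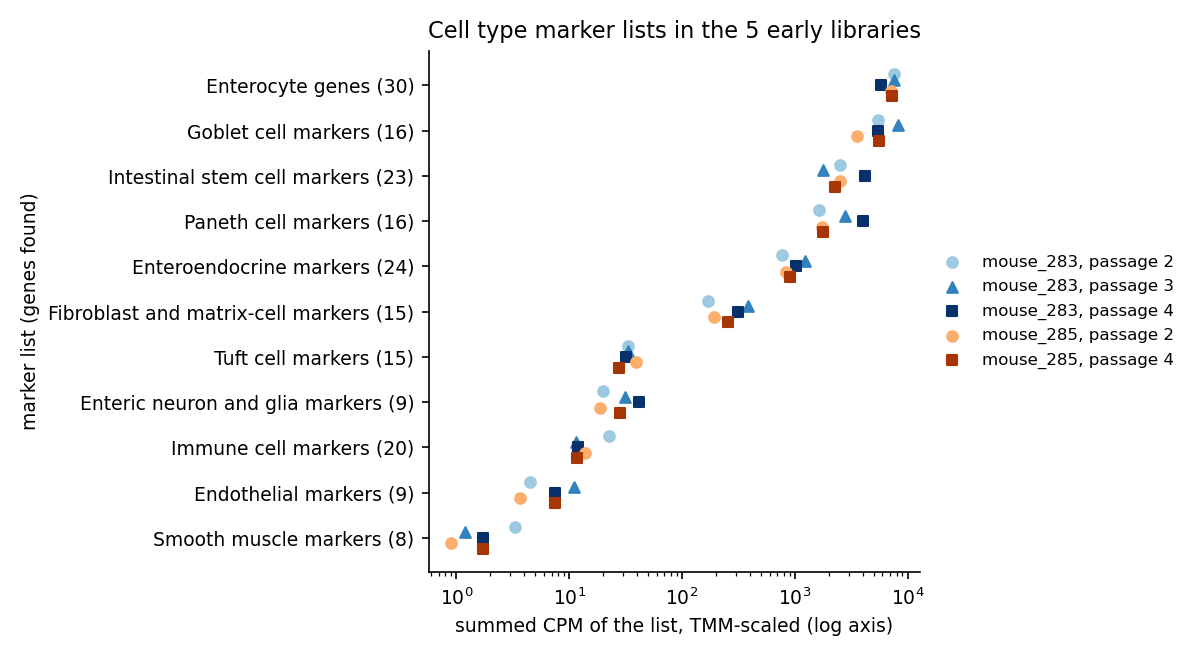
Summed CPM of the members of each marker list in each early library, on a log axis; each symbol is 1 library. Enterocyte, goblet, stem and Paneth cell sums are 1646 CPM or higher in all 5 libraries, and the immune sums do not exceed 22.7 CPM.

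Per kilobase, the highest nuclear coding genes were those of protein synthesis, metal binding and glycolysis. Eef1a1, which brings aminoacyl-tRNA to the ribosome, led with 7907 CPM per kb on average (SD 1076 over the 5 libraries), followed by the metallothionein Mt2 at 7093 (SD 2758), the ribosomal stalk protein gene Rplp1 at 6450 (SD 3625) and the metallothionein Mt1 at 4681 (SD 2102). The spread of neighbours in this order overlaps. Lengths are those of the longest annotated transcript of each gene, such as 3289 bases for Gapdh and 1085 for Mt1. Where a shorter transcript is the one made, the level is understated, so the order between genes is uncertain. The glycolytic enzymes Aldoa, at 3875 CPM per kb, Eno1, at 2793, and Gapdh, at 2676, were also among the 20 highest. Mitochondrially encoded mt-Co1 reached 11505 CPM per kb on average and ranged from 7473 CPM at passage 3 of mouse_283 to 27870 CPM at passage 2 of the same animal. On the same per-kilobase scale, the goblet cell peptide Tff3 stood at 1543, the secretory peptide Spink4 at 1100, the Paneth and goblet cell lectin Itln1 at 769, the carboxylesterase Ces2a at 658, the enterocyte fatty acid binder Fabp1 at 581 and the defensin Defa24 at 579. Lgr5 stood far lower, at 26.5 (SD 13.6), and the proliferation antigen gene Mki67 at 8.59. Ribosomal protein, carboxylesterase and defensin genes have near-identical copies, so their shares are uncertain. Counted by mean level, 119 genes reached 1000 CPM, 1971 reached 100 CPM and 12099 reached 1 CPM, and 11013 stood at 1 CPM or more in each of the 5 libraries.

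The comparison the passages allow is that of the 3 later libraries, at passages 3 and 4, with the passage 2 library of the same animal. In edgeR's quasi-likelihood model with the mouse as a block, 293 of 13498 tested genes rose (2.17%) and 1331 fell (9.86%) at an adjusted p under 0.05, 12% of tested genes in all. These calls followed base composition. Genes that rose had a median transcript GC content of 56.7% and a median length of 1214 bases, and genes that fell 43.2% and 4737.5 bases, against 50.1% and 3191 bases over all genes tested. Pseudogenes made up 104 of the 293 rises and 7 of the 1331 falls, beside 577 of all 13498 tested genes. Across genes, the log2 change rose by 0.96 for each 10 points of transcript GC content, with a correlation of 0.65; genes are not independent replicates, so this is a description of these libraries.

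The trend had the same sign in each within-animal difference and different sizes. For each 10 points of GC, the log2 difference from passage 2 rose by 1.41 at passage 3 and by 1.21 at passage 4 of mouse_283, which share their passage 2 library, and by 0.43 at passage 4 of mouse_285. Of the 691 genes under 40% GC, 34.3% fell, and their median log2 differences were -1.62, -1.71 and -0.38 in that order. Of the 561 genes at 60% GC or more, 11.2% rose and none fell, with medians of 1.5, 1.04 and 0.45. Genes between 48% and 52% GC had medians of -0.06, 0.15 and -0.03. The correlation with GC was 0.62 when measured on coding sequence and 0.61 on 3′ untranslated sequence, but 0.085 on 5′ untranslated sequence and -0.0055 on promoter sequence. The trend was thus with the composition of the transcript body, and none of that size was seen with the promoter.

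**Figure D2:**
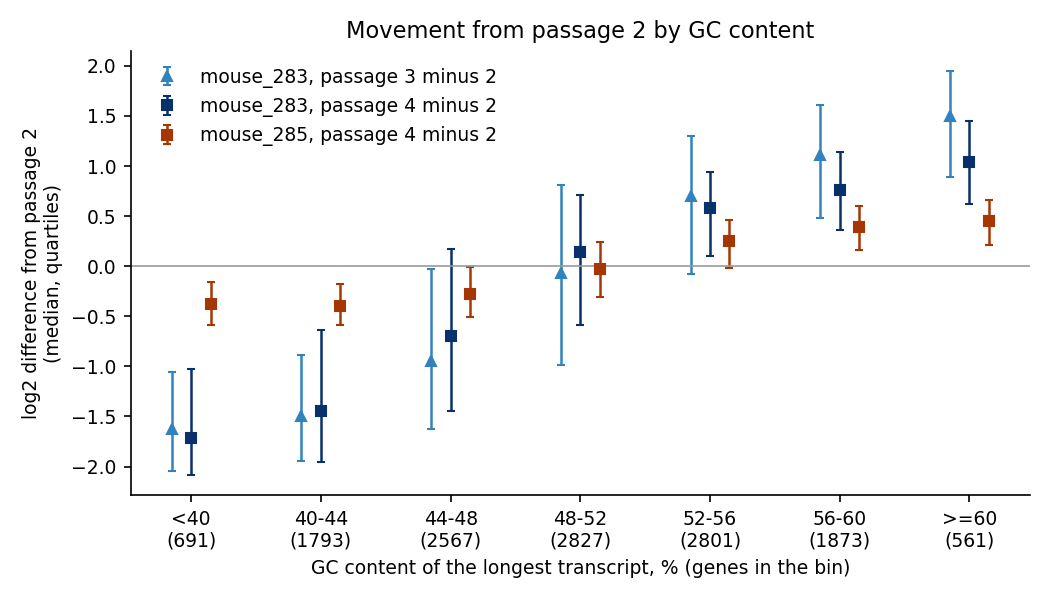
Median log2 difference from the passage 2 library of the same animal (y axis) in bins of transcript GC content in percent (x axis), with bars from the lower to the upper quartile of genes, for the 3 later libraries. The medians climb from left to right in each, from -1.62 to 1.5 at passage 3 of mouse_283 and from -0.38 to 0.45 at passage 4 of mouse_285.

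The contrast can be read from the start of the coding sequences of genes at both ends of the change. The stretches below, each 120 bases from the start codon in the GENCODE M21 transcripts of build GRCm38, are printed 5′ to 3′ with G and C in capitals. Sp5 and Igfbp2 are 2 of the largest rises, Lmbrd2 and A1cf are 2 of the largest falls, and Clu is the largest fall that remains after a correction for GC and length.
Sp5: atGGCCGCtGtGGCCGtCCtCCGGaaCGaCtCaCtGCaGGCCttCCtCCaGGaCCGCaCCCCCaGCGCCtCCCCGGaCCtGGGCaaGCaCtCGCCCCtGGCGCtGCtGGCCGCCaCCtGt
Igfbp2: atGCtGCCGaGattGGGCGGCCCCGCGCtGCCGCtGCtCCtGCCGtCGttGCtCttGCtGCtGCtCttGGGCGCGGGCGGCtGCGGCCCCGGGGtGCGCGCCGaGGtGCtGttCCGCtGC
Lmbrd2: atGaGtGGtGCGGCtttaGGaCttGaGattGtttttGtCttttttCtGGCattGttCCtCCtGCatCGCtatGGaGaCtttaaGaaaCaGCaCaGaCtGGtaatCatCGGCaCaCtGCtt
A1cf: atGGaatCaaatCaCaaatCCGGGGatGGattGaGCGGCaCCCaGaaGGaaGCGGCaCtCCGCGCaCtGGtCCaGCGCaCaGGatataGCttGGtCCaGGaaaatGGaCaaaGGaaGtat
Clu: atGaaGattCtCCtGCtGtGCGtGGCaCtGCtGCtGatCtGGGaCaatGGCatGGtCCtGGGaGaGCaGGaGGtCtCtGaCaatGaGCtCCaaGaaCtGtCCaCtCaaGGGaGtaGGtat
G and C fill 87 of the 120 bases in Sp5 and 90 in Igfbp2, against 53 in Lmbrd2 and 63 in A1cf. Clu, a fall with 64, lies near A1cf in this stretch, but its whole transcript, at 55.6% GC, is richer than the median tested gene.

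Because of this trend each result is given in 2 versions below, as fitted with ordinary library scaling and as fitted with an offset per library that removes a smooth trend on GC content and transcript length ("corrected"). The correction lowered the slope to 0.026 per 10 points of whole-transcript GC, the measure it was fitted on. Part of the trend remained on other measures. Corrected slopes were 0.13 on coding sequence (correlation 0.14) and 0.14 on 3′ untranslated sequence (correlation 0.18). It left 3 genes of 13113 past the threshold, all of them falls (0.0229% of tested genes), and no rise, while 1978 genes had an unadjusted p under 0.05. Of the genes that fell in the ordinary fit, 84 had a positive corrected change. The correction also removes any biological change that runs along GC content or length, which cannot be told apart from a technical trend here.

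Among genes with a mean of at least 5 CPM and the same direction in all 3 within-animal differences, the rises in the ordinary fit were led by Sp5, a transcription factor induced by Wnt signalling. Sp5 stood at 3.29, 15.5 and 75.9 CPM at passages 2, 3 and 4 of mouse_283 and at 4.29 and 6.90 CPM at passages 2 and 4 of mouse_285, a log2 change of 2.38 (SE 0.57, adjusted p = 0.00758). Passage 4 of mouse_283 was far above the other 4 libraries, and the corrected change was 1.64 (adjusted p = 0.29). Igfbp2, which binds insulin-like growth factors, stood at 7.92, 33.4 and 63.8 CPM in mouse_283 and 9.10 and 17.7 CPM in mouse_285, a log2 change of 1.88 (adjusted p = 0.0128; corrected 0.86, adjusted p = 0.331). All 3 later libraries lay above both passage 2 libraries. Nrtn, a ligand of RET coreceptors, stood at 23.3, 177 and 119 CPM and at 58.1 and 87.1 CPM, a log2 change of 1.73 (adjusted p = 0.0128; corrected 0.51, adjusted p = 0.394). Naa38, a subunit of an N-terminal acetyltransferase, had 0.614, 15.6 and 12.5 CPM in mouse_283 against 8.52 and 11.3 CPM in mouse_285, so the low value belonged to passage 2 of mouse_283 and not to passage 2 as such. Ost4, a small subunit of the oligosaccharyltransferase, rose by 1.82, and the ribosomal protein gene Rpl35 by 1.77, with corrected changes of 1.41 (adjusted p = 0.188) and 0.78 (adjusted p = 0.27). The others of the 10 largest rises were Fam171a2, Limd2, Mocs3 and Gpatch3, between 1.68 and 1.76, and none of the 10 passed the threshold after correction.

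The falls under the same conditions were led by Lmbrd2, a membrane protein gene with 22.3, 0.551 and 1.86 CPM at passages 2, 3 and 4 of mouse_283 and 10.5 and 8.72 CPM at passages 2 and 4 of mouse_285, a log2 change of -2.70 (SE 0.55, adjusted p = 0.00188). Nearly all of that change lay in mouse_283, and the corrected value was -1.16 (adjusted p = 0.277). A1cf, the RNA-binding cofactor of apolipoprotein B mRNA editing, had 23.4, 2.06 and 2.66 CPM and 16.1 and 10.1 CPM, a log2 change of -2.26 (adjusted p = 0.0036; corrected -1.59, adjusted p = 0.169). Mdm4, a repressor of p53, had 37.8, 1.80 and 6.19 CPM and 30.9 and 20.5 CPM, a log2 change of -2.19 (adjusted p = 0.00188; corrected -1.03, adjusted p = 0.246) that lay mostly in mouse_283. Xist, the noncoding RNA that coats the inactive X chromosome, was present in every library, at 906, 98.7 and 87.4 CPM in mouse_283 and 464 and 395 CPM in mouse_285, whereas 4 Y-linked genes had no read in any. It fell by 2.13 on the log2 scale (adjusted p = 0.00188), and after correction by 0.55 (adjusted p = 0.414). The guanine deaminase gene Gda, with 19.6, 2.16 and 2.33 CPM and 13.9 and 7.38 CPM, and the zinc finger gene Zfp871, with 31.5, 1.91 and 4.73 CPM and 20.2 and 18.2 CPM, were falls of the same kind. Fn1, the gene of the matrix protein fibronectin, fell by 2.35. Its fall rested on mouse_283 with 25.4, 0.551 and 8.67 CPM, since mouse_285 had 0.159 and 0.0479 CPM. Ano1, a calcium-activated chloride channel gene, Myof, a membrane repair protein gene, and Clu completed the 10 largest falls and are described with the fetal-like genes.

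The counts of calls rest on single libraries. Without passage 2 of mouse_283, the library with the most reads outside genes, no gene passed the threshold and 143 had an unadjusted p under 0.05. Without passage 4 of mouse_283 the count was 2, and without passage 3 of that animal 222.

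Clu and Msln were the named genes that fell in both fits. Clu, which encodes the secreted chaperone clusterin and marks a stem cell state that appears during repair, stood at 183, 71.8 and 82.2 CPM at passages 2, 3 and 4 of mouse_283 and at 38.5 and 4.17 CPM at passages 2 and 4 of mouse_285. Each later library lay below passage 2 of its animal, although the later libraries of mouse_283 remained above passage 2 of mouse_285. Its log2 change was -2.09 (SE 0.42, adjusted p = 0.00188), and -2.74 after correction (SE 0.34, adjusted p = 0.00523), with corrected within-animal differences of -2.45, -1.97 and -3.49. Msln, the gene of the surface protein mesothelin, stood at 44.6, 28.1 and 20.6 CPM in mouse_283 and 28.95 and 8.82 CPM in mouse_285. All 3 later libraries lay below both passage 2 libraries, with a log2 change of -1.24 (adjusted p = 0.0448) and a corrected change of -1.82 (SE 0.29, adjusted p = 0.044). Its corrected differences of -1.58, -1.80 and -1.98 were of like size in both animals. The third gene that fell in both fits, the predicted gene Gm3054, lies outside the rule for naming genes and was named after its values were seen, with 10.5, 1.60 and 0.619 CPM and 14.5 and 7.00 CPM. Leaving out any 1 library kept the sign of the Clu and Msln changes, but Msln missed the threshold in each such fit and Clu in all but the fit without passage 3 of mouse_283.

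Of the 19 fetal-like and repair genes, 15 passed the filter on low counts, none rose and 6 fell, a share of the list set beside 9.86% of all tested genes. Besides Clu and Msln these were Anxa1 and Anxa3, which encode calcium-dependent phospholipid binders, Spp1, the gene of the matrix protein osteopontin, and Ereg, a ligand of the EGF receptor. Spp1 had no read in mouse_285, so it passed the filter only through mouse_283 and its fall rests on that animal. The median log2 change over the 15 genes was -0.98, and -1.05 after correction, beside 0.03 for all genes tested in both fits. The list median was -0.87 at passage 3 and -1.11 at passage 4 of mouse_283, which share their passage 2 library, and -0.46 at passage 4 of mouse_285. After correction these were -1.34, -1.23 and -0.61. Passage 2 of mouse_283 was the highest of the 5 libraries for 11 of the 15 genes, beside 28.7% of all genes tested. The list was known from earlier results of these data and is no independent evidence of its direction. In whole cultures, fewer cells of a type and less RNA per cell cannot be told apart.

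Within this group Anxa1 stood at 20.1, 5.21 and 4.08 CPM in mouse_283 and at 9.85 and 2.54 CPM in mouse_285, a log2 change of -2.05 (adjusted p = 0.00766; corrected -1.61, adjusted p = 0.142). The 3 later libraries lay below both passage 2 libraries. Anxa3 had 80.5, 32.1 and 32.8 CPM and 58.9 and 33.2 CPM, with the groups again apart, and a log2 change of -1.11 (adjusted p = 0.0463; corrected -1.05, adjusted p = 0.175). Ereg was low throughout, at 1.56 CPM, no read and 0.219 CPM in mouse_283 and at 1.11 and 0.240 CPM in mouse_285. Areg, another EGF receptor ligand gene, was far more abundant and did not pass the test, with 239, 159 and 89.6 CPM and 234 and 176 CPM. Ly6a, the gene of the fetal and regenerative surface marker Sca-1, had 35.2, 26.8 and 27.7 CPM and 14.1 and 6.18 CPM (log2 change -0.72, adjusted p = 0.227). Krt7, a keratin of simple ducts, went the other way in mouse_283, with 128, 351 and 286 CPM, and stayed level in mouse_285, with 166 and 163 CPM.

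Genes outside the list with the same shape came from the largest falls. Ano1 stood at 14.8, 1.85 and 3.20 CPM in mouse_283 and at 6.93 and 2.40 CPM in mouse_285, and its log2 change was nearly the same before correction, -2.13 (adjusted p = 0.00766), and after it, -2.14 (adjusted p = 0.0705). Myof stood at 19.2, 2.41 and 3.79 CPM and at 8.89 and 2.88 CPM, with a log2 change of -2.22 (adjusted p = 0.00441; corrected -1.67, adjusted p = 0.142). In both genes each later library lay below both passage 2 libraries. Wfdc2, a secreted protease inhibitor gene, had 8.65, 7.82 and 6.77 CPM in mouse_283 and 2.81 and 0.336 CPM in mouse_285. It did not pass the test, with a log2 change of -1.27 (adjusted p = 0.123) and a corrected change of -2.37 (adjusted p = 0.11), and its corrected differences were -1.91, -1.65 and -3.30.

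**Figure D3:**
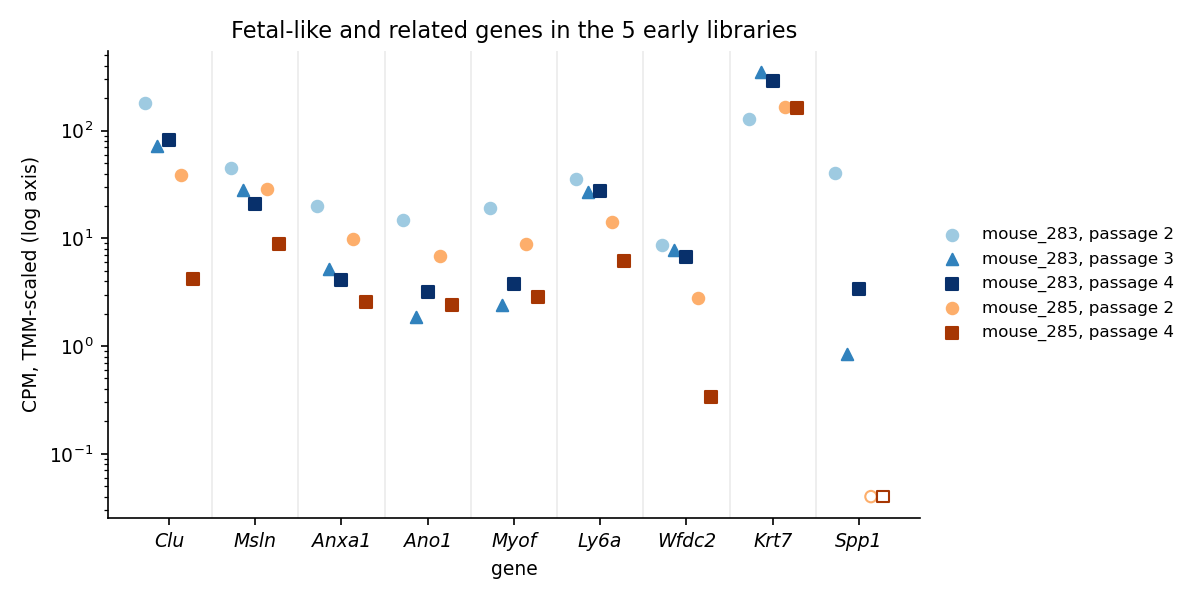
CPM of fetal-like genes and of falls described with them in each of the 5 early libraries, on a log axis; each symbol is 1 library, and an open symbol at the bottom marks a gene without a read. Clu, Msln, Anxa1, Ano1 and Myof are lower in each later library than at passage 2 of the same animal, Krt7 is not, and Spp1 has no read in mouse_285.

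Interferon response genes included falls and no rise in the ordinary fit. Of 26 genes 24 passed the filter, none rose and 7 fell, beside 9.86% of all tested genes that fell, with a median log2 change of -1.31 and of -0.69 after correction, when none passed the threshold. Oasl2, an oligoadenylate synthetase-like antiviral gene, stood at 41.6, 9.07 and 8.96 CPM in mouse_283 and at 18.3 and 7.77 CPM in mouse_285, a log2 change of -1.81 (adjusted p = 0.00783; corrected -1.69, adjusted p = 0.0816). All 3 later libraries lay below both passage 2 libraries. Ifit1, which binds viral RNA, had 7.42, 1.10 and 0.546 CPM and 3.07 and 1.58 CPM, a log2 change of -2.29 (adjusted p = 0.0126; corrected -1.56, adjusted p = 0.194). The RNA sensor gene Ddx58, with 24.5, 5.72 and 5.97 CPM and 14.4 and 8.20 CPM, fell by 1.55, and its relative Ifih1, with 13.7, 3.26 and 2.62 CPM and 12.7 and 7.91 CPM, by 1.59. Corrected values were -1.04 (adjusted p = 0.188) and -0.53 (adjusted p = 0.483). Other members did not pass, such as Oas1a with 19.8, 22.5 and 12.3 CPM and 11.8 and 10.4 CPM and the transcription factor gene Irf7 with 47.6, 45.3 and 27.6 CPM and 28.8 and 30.4 CPM. The corrected list medians were -0.86 and -1.45 at passages 3 and 4 of mouse_283 and -0.31 at passage 4 of mouse_285. Passage 2 of mouse_283 was the highest library for 18 of the 24 genes, beside 28.7% of all genes tested. The summed immune cell markers moved with these genes, from 22.7 CPM at passage 2 of mouse_283 to 11.5 and 11.9 CPM at its passages 3 and 4, and from 13.9 to 11.8 CPM in mouse_285. The 4 of the 20 markers that passed the filter had a median log2 change of -0.68 (corrected -0.86), none past the threshold, and were highest at passage 2 of mouse_283, while 7 had no read in any library. Their part in the interferon result was not tested.

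**Figure D4:**
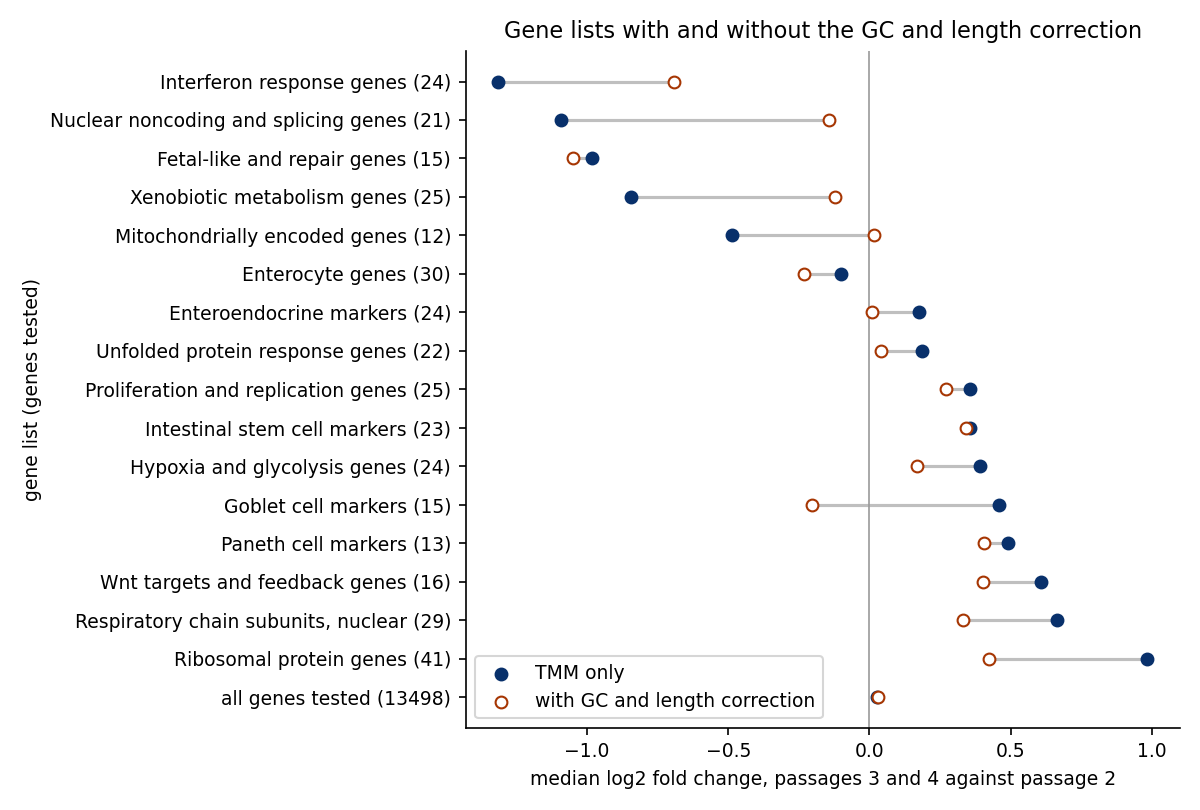
Median log2 change of passages 3 and 4 against passage 2 for 16 gene lists and all genes tested (x axis, log2), with filled symbols for ordinary scaling and open symbols for the GC and length correction. Fetal-like genes keep their median near -1 in both, and the medians of nuclear noncoding and splicing and of xenobiotic metabolism genes lie near 0 only after correction.

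Other groups with many falls in the ordinary fit had medians near 0 after correction. Of 21 tested nuclear noncoding and splicing genes, which have a median GC of 41.6%, 11 fell and none rose, beside 9.86% falls over all tested genes, with a median of -1.09 and of -0.14 after correction. They included Malat1, a nuclear noncoding RNA, and the splicing factor genes Rbm39, with 139, 32.5 and 28.8 CPM and 143 and 101 CPM, and Prpf38b, with 46.1, 8.27 and 10.2 CPM and 59.1 and 40.6 CPM. Of 25 xenobiotic metabolism genes, 10 fell, among them the glucuronosyltransferase gene Ugt2b34, with 648, 142 and 87.5 CPM and 496 and 368 CPM, and the sulfotransferase gene Sult1d1, with 79.9, 20.7 and 8.92 CPM and 48.9 and 44.3 CPM. The median of that list was -0.84, and -0.12 after correction, and these gene families hold close copies, so single members are uncertain. Neither list had a member past the threshold after correction.

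Enterocyte genes were divided. Of 30 tested, 9 fell and none rose, beside 9.86% of all tested genes that fell, but the median was -0.10 (corrected -0.23). The brush border enzymes Sis, the sucrase-isomaltase gene, with 497, 75.7 and 60.4 CPM and 508 and 426 CPM, and Mme, the neprilysin gene, with 18.2, 2.21 and 2.40 CPM and 19.96 and 13.1 CPM, fell by 1.86 (adjusted p = 0.00441) and 2.02 (adjusted p = 0.00758). After correction they were at -0.58 (adjusted p = 0.391) and -0.59 (adjusted p = 0.393). Krt20, the keratin of mature epithelium, kept its size, with 152, 53.3 and 40.2 CPM in mouse_283 and 145 and 80.3 CPM in mouse_285, a log2 change of -1.34 (adjusted p = 0.0164) and a corrected change of -1.44 (adjusted p = 0.142). Its 3 later libraries lay below both passage 2 libraries. Anpep and Fabp1 did not pass the test, at 1170 to 1890 CPM and 145 to 497 CPM. The iron oxidase gene Heph, with 118, 15.4 and 24.3 CPM and 95.5 and 51.7 CPM, fell by 1.89 (adjusted p = 0.00188; corrected -1.19, adjusted p = 0.167), and Pigr, the receptor that carries IgA across the epithelium, with 1250, 275 and 271 CPM and 1020 and 780 CPM, by 1.47 (adjusted p = 0.0183; corrected -1.31, adjusted p = 0.169).

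Ribosomal protein and nuclear-encoded respiratory chain genes had medians above 0 with few calls. These calls, and that among mitochondrially encoded genes, are read beside 2.17% rises and 9.86% falls over all tested genes. Of 41 ribosomal protein genes, only Rpl35 rose, at 25.3, 163 and 154 CPM and 75.4 and 122 CPM, and the list median was 0.98, or 0.42 after correction. Passage 3 of mouse_283 was the highest library for 38 of the 41 genes, beside 32.8% of all genes tested. The list medians were 1.81, 1.30 and 0.19 in the order of the 3 later libraries. The 29 nuclear-encoded respiratory chain genes had a median of 0.67 (corrected 0.33) and 1 call, a fall of Ndufs1, a subunit of complex I. The 12 tested mitochondrially encoded genes had a median of -0.49 and of 0.02 after correction, and 1 of them, mt-Cytb, fell, with 5047, 1671 and 1326 CPM and 4246 and 2764 CPM (log2 change -1.28, adjusted p = 0.0422). Nuclear-encoded and mitochondrially encoded subunits of the same chain thus had medians of opposite sign in the ordinary fit, at median GC contents of 48.7% and 37.4%.

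Proliferation genes had a share of falls near that of all genes. Of 25 tested, 2 fell and none rose, beside 9.86% falls over all tested genes, and the median was 0.35 (corrected 0.27). Mki67 stood at 101, 40.6 and 27.1 CPM in mouse_283 and at 152 and 112 CPM in mouse_285, a log2 change of -1.10 (adjusted p = 0.0384) and of -0.13 after correction (adjusted p = 0.877). The other fall was Mcm4, a subunit of the replicative helicase, with 56.2, 11.9 and 24.4 CPM and 49.7 and 36.8 CPM (adjusted p = 0.0483). Its partner gene Mcm5 lay on the other side, with 78.6, 202 and 215 CPM and 89.2 and 130 CPM (log2 change 1.03, adjusted p = 0.0744). The GC contents of the 2 transcripts are 45.5% and 51.9%. Pcna, the sliding clamp gene, stood at 202, 109 and 209 CPM and at 223 and 173 CPM.

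Passage 4 of mouse_283 carried the highest crypt-base signal of the 5 libraries. It was the highest library for 12 of 16 tested Wnt targets and feedback genes, 14 of 23 stem cell markers, 11 of 13 Paneth cell markers and 9 of 15 Notch pathway genes, beside 17.5% of all genes tested. The Wnt and stem cell lists share members, among them Lgr5, Cd44 and Ephb3, so their counts and medians are not independent. From passage 3 to passage 4 of mouse_283 the median log2 difference was 1.31 for the Wnt list (corrected 1.22), 1.11 for the stem cell list (1.10), 1.17 for the Paneth list (1.24) and 0.55 for the Notch list (0.76), beside -0.04 for all genes (-0.07). Enterocyte genes had -0.35 over the same step (corrected -0.48), and xenobiotic metabolism genes -0.61 (-0.73). These are differences between 2 libraries, with no replicate check. In mouse_285 the medians from passage 2 to passage 4 were 0.15 for the Wnt list, -0.17 for the stem cell list and -0.11 for the Paneth list.

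Single genes show how far that library stood out. Axin2, a negative feedback gene of Wnt signalling, had 63.4, 39.3 and 286 CPM at passages 2, 3 and 4 of mouse_283 and 63.2 and 85.6 CPM in mouse_285. Smoc2, a matrix protein gene of Lgr5 cells, had 372, 459 and 842 CPM against 413 and 426 CPM, so the other 4 libraries lay close together. Olfm4, a secreted stem cell marker and Notch target, varied widely, with 140, 23.2 and 470 CPM and 84.0 and 81.6 CPM (log2 change 0.44, adjusted p = 0.458). The Paneth cell products followed, with 112, 224 and 547 CPM of Defa24 and 452, 948 and 1738 CPM of Itln1 in mouse_283, and 162 and 169 CPM and 566 and 685 CPM in mouse_285. Wnt3, the Wnt ligand gene of Paneth cells, had 3.57, 8.42 and 19.7 CPM and 3.49 and 6.52 CPM, and rose by 1.51 (adjusted p = 0.0497; corrected 1.28, adjusted p = 0.206). It was the only Paneth cell marker of 13 that rose, beside 2.17% of all tested genes.

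Lgr5 did not share that maximum. It stood at 206, 39.9 and 105 CPM at passages 2, 3 and 4 of mouse_283 and at 175 and 109 CPM at passages 2 and 4 of mouse_285, with the 3 later libraries below both passage 2 libraries. Its log2 change was -1.16 (SE 0.38, adjusted p = 0.0322), and -0.38 after correction (adjusted p = 0.595). Of the 23 stem cell markers 3 fell, Lgr5, Cd44 and Bmi1, and 1 rose, Ephb3, a receptor that positions cells in the crypt, with 21.8, 41.8 and 105 CPM and 22.3 and 33.5 CPM (log2 change 1.24, adjusted p = 0.048; corrected 0.89, adjusted p = 0.307). Of the 16 Wnt genes, Sp5 and Ephb3 rose and Lgr5 and Cd44 fell. Calls in both lists, and in the Notch list, are read beside 2.17% rises and 9.86% falls over all tested genes. The fallen genes of the stem cell and Wnt lists have transcript GC contents of 40.2% to 44.7%, and the risen genes 57.0% and 62.0%. In the Notch list Hes1, a target of Notch receptors, rose with 30.8, 116 and 125 CPM and 97.9 and 120 CPM, and the ligand gene Jag1 fell with 29.8, 4.56 and 10.0 CPM and 24.5 and 14.7 CPM. Neither passed after correction.

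**Figure D5:**
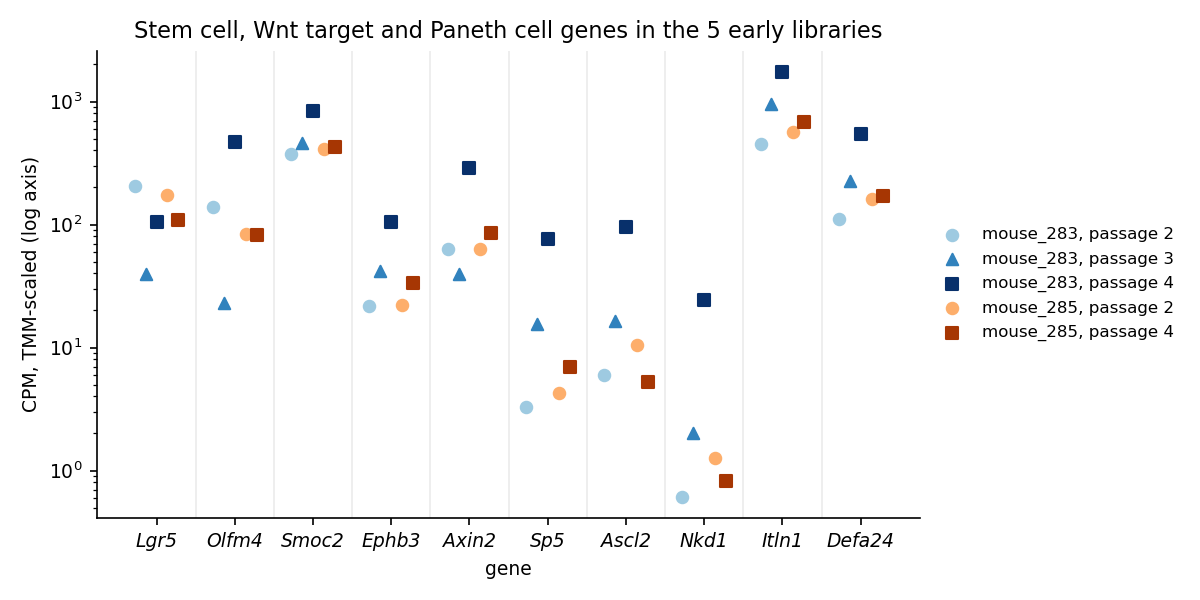
CPM of stem cell, Wnt target and Paneth cell genes in each of the 5 early libraries, on a log axis; each symbol is 1 library. Passage 4 of mouse_283 is the highest library for each gene shown except Lgr5, which is highest at passage 2 of that animal. The genes shown are a selection. Of the 23 tested stem cell markers, 14 were highest at passage 4 of mouse_283 and 7 at its passage 2, among the latter Cd44 and Bmi1, which are not shown.

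Goblet and enteroendocrine markers are read beside the 12% of all tested genes called in either direction. None of 15 goblet cell markers passed the test, and the median was 0.46 (corrected -0.20); Tff3 had 538, 1490 and 753 CPM and 472 and 555 CPM, and Muc2, the main gut mucin gene, 162, 301 and 65.6 CPM and 140 and 104 CPM, highest in both cases at passage 3 of mouse_283. Of 24 enteroendocrine markers 3 were called, a share near that of all genes. Chga, the gene of a granule protein, rose with 106, 294 and 271 CPM and 103 and 186 CPM (log2 change 1.17, adjusted p = 0.0457; corrected 0.37, adjusted p = 0.545). Chgb, its relative, did not pass, with 278, 150 and 111 CPM and 293 and 219 CPM. The transcription factor gene Rfx6 and the granule gene Scg3 fell at levels under 5 CPM.

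Genes of the DNA methylation and Polycomb machinery are given beside 2.17% rises and 9.86% falls over all tested genes. Of 23 tested methylation and demethylation genes 1 rose, the repair endonuclease gene Apex1, and 1 fell, the methyl-DNA binder gene Zbtb33, and the median was -0.14 in both fits. Dnmt1, the maintenance methyltransferase gene, stood at 149, 195 and 196 CPM in mouse_283 and at 138 and 141 CPM in mouse_285, and its partner Uhrf1 at 94.6, 149 and 208 CPM and 91.7 and 115 CPM. The de novo enzymes Dnmt3a, at 48.9, 19.8 and 26.8 CPM and 47.2 and 41.5 CPM, and Dnmt3b, at 8.42, 5.72 and 9.58 CPM and 8.15 and 7.43 CPM, did not pass either. Tet1, which oxidises methylcytosine, was scarce, at 1.78, 0.150 and 0.146 CPM and 0.741 and 0.671 CPM (log2 change -2.09, adjusted p = 0.0654; corrected -0.79, adjusted p = 0.643). Of 20 Polycomb genes 4 fell, among them the core subunit genes Suz12, with 54.0, 14.6 and 15.1 CPM and 59.7 and 48.3 CPM, and Ezh2, with 40.7, 16.5 and 14.7 CPM and 48.2 and 27.4 CPM. The list median was 0.20 (corrected -0.03), and neither gene passed after correction.

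After correction no rise passed the threshold, so the genes that were higher are given by value. The rule took those whose smallest of the 3 corrected within-animal differences was the largest. Zc3hc1, a nuclear zinc finger protein gene, came first, with 19.2, 41.8 and 32.2 CPM in mouse_283 and 16.4 and 27.9 CPM in mouse_285 and corrected differences of 1.97, 1.499 and 1.09. Its 3 later libraries lay above both passage 2 libraries. Cbs, which makes cystathionine from homocysteine, had 5.52, 15.5 and 24.2 CPM in mouse_283 and 4.34 and 8.34 CPM in mouse_285, with corrected differences of 2.26, 2.54 and 1.03. All 3 later libraries lay above both passage 2 libraries. Apcdd1, an inhibitor of Wnt signalling, had 3.40, 4.31 and 14.7 CPM and 2.59 and 4.46 CPM, and Ubald1 had 24.5, 127 and 60.4 CPM and 26.6 and 63.8 CPM.

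The other labelled difference is that between the animals. In the same fit, 42 genes differed between mouse_285 and mouse_283 (0.311% of 13498), 3 higher (0.0222%) and 39 lower (0.289%) in mouse_285, and 26 after correction (0.198%), all lower. Spp1 stood at 40.2, 0.852 and 3.42 CPM in mouse_283 and had no read in either library of mouse_285. Against a floor of 3 reads over both libraries, it was at least 197-fold below the mean of mouse_283. Its fall with passage (log2 change -4.18, and -3.62 after correction) rests on mouse_283 alone. Also without a read in mouse_285 were Gabrp, the gene of a GABA receptor subunit (at least 59.5-fold lower), the surfactant protein gene Sftpd (at least 61.4-fold), the chemokine gene Cxcl5 (at least 34.4-fold), Dram1, a p53-induced autophagy gene (at least 30.0-fold), and Tm4sf1, a surface protein gene (at least 23.3-fold). These folds use the mean of the mouse_283 libraries and need not hold for each of them. Passage 2 was the highest of these libraries for each of the 6 genes. Cxcl5, with 5.58, 0.100 and 2.11 CPM, lay below the level of 3 reads at passage 3 (0.150 CPM). All 6 passed the filter on low counts only through mouse_283, so no p is given for them, and 12 of the 42 genes had at least 10 reads in every library. Clu was also lower in mouse_285, by a log2 difference of -3.29 (SE 0.47, adjusted p = 2.65e-08). So was Fn1, with 0.159 and 0.0479 CPM in mouse_285 against 25.4, 0.551 and 8.67 CPM in mouse_283. Xlr3a, an X-linked gene of a family of close copies and therefore uncertain, was higher, with 2.91 and 1.63 CPM against 0.0558 CPM, no read and 0.219 CPM. Fn1 and Xlr3a passed the filter through the animal with the higher level, so no p is given for them either. With 1 animal on each side, age, gut segment and other differences between the animals cannot be told apart.

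Whether the animals moved differently with passage was tested by the interaction term, which leaves 1 residual degree of freedom. It passed the threshold for 8 of 14411 genes (0.0555%), and for 4 of 13914 after correction (0.0287%). Ascl2, the transcription factor gene of crypt stem cells, stood at 6.02, 16.5 and 95.4 CPM at passages 2, 3 and 4 of mouse_283 and at 10.5 and 5.23 CPM at passages 2 and 4 of mouse_285. Its log2 change was 3.24 in mouse_283 and -1.01 in mouse_285, a difference of -4.25 (SE 0.83, adjusted p = 0.00489; corrected adjusted p = 0.0212). Nkd1, a Wnt-induced inhibitor of the pathway, had 0.614, 2.01 and 24.4 CPM against 1.27 and 0.815 CPM, a difference of -5.09 (SE 1.06, adjusted p = 0.0118; corrected adjusted p = 0.0121). With DESeq2 neither gene passed, at -4.26 and -5.10, nor with all 11 libraries for the spread, at -4.12 and -4.95. Both genes take their difference mainly from passage 4 of mouse_283, the library in which most Wnt, stem and Paneth cell genes were highest, and without that library the model has no residual degree of freedom.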

How the data were processed

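Bulk RNA-seq was available for 5 organoid libraries of 2 mice at passages 2, 3 and 4; the other 6 libraries were used only in the alternatives that take the spread from them (all 11 libraries, and mouse_285 alone). The authors deposited raw counts of reads per gene, made with Trimmomatic and STAR on mouse build mm9, per the submitters' processing notes. Versions and the annotation release are not given in the sources used here. The unstranded count column was used, as the strand columns held about 50% of reads each; reads of overlapping and antisense genes cannot be told apart. Symbols, GC content, length and coding sequences came from GENCODE M21 (GRCm38) by gene ID: 32620 of 37310 IDs matched, and no coordinates are given, since the builds differ. GC content and length are those of the longest transcript of each gene. No library pair agreed within sampling noise (the smallest chi-square per degree of freedom was 42.4).

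Counts were tested with edgeR 4.0.16 (filterByExpr, TMM scaling, quasi-likelihood F test, two-sided, Benjamini-Hochberg over all tested genes, threshold 0.05) in R 4.3.3. The model held the mouse and later against passage 2, with 2 residual degrees of freedom. The mouse number is the replicate block: same-numbered libraries come from the same animal (the correlation of their deviations between passages 2 and 4 was 0.04). The corrected fit added offsets from splines with 5 degrees of freedom on GC content and log2 length, for 97.1% of tested genes. Differences between libraries are log2 CPM with a prior count of 2. The scripts were tested on simulated data. An exact permutation of passages within mice has 6 arrangements and cannot go below p = 0.167.

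The libraries, gene lists and tests were chosen with earlier results of these data known. Genes were named as the 10 largest rises and falls past the threshold with a usual symbol, a mean of at least 5 CPM and 3 like-signed within-animal differences, the 8 largest each way after correction, the 6 largest differences between animals, up to 6 interactions, the 20 highest per kilobase, and up to 4 members per list with the smallest p or 5 with the highest level. A few markers, such as Lgr5 and Dnmt1, were fixed by name, and other members were named with their values seen. Alternatives were DESeq2 1.42.0 or its size factors, other filters, a strand column, each library left out, and other models. Intervals and floors cover counting error only. Values of some list members are not reported here.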

Additional observations from a re-analysis of the deposited data

Results flagged for a closer look

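The change from passage 2 to later passages differed between the animals for 6 named genes, by the interaction term of edgeR's quasi-likelihood test with 1 residual degree of freedom and Benjamini-Hochberg adjustment. A negative value means a lower change in mouse_285 than in mouse_283. The values of Naa38 and Gm15657 depended on the count column. On the first strand column they were -1.34 and 2.51, against -4.12 and 5.31 on the unstranded column. For Ascl2, Nkd1, Lmbrd2 and Malat1 the first strand column gave -4.20, -5.80, 3.80 and 3.98. The cause was not tested. For Ascl2 the log2 difference was -4.25 and for Nkd1 -5.09, and both passed again after the GC and length correction, but not with DESeq2, where only Malat1 of the 6 passed, nor with all 11 libraries for the spread. Naa38, at 0.614 CPM in passage 2 of mouse_283 and 8.52 to 15.6 CPM in the other 4 libraries, had a difference of -4.12 (adjusted p = 0.0278), and missed the threshold after correction (adjusted p = 0.125). Lmbrd2 had a difference of 3.87 (adjusted p = 0.0202; corrected 0.796). Malat1, a noncoding RNA kept in the nucleus, stood at 857, 77.9 and 64.8 CPM at passages 2, 3 and 4 of mouse_283 and at 230 and 286 CPM at passages 2 and 4 of mouse_285, a difference of 3.87 (adjusted p = 0.0385; corrected 0.468). The predicted gene Gm15657 had 6.75, 0.451 and 0.146 CPM and 1.01 and 1.77 CPM, a difference of 5.31 (SE 1.25, adjusted p = 0.0386; corrected 0.0252).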

How the results depend on the processing

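The 1624 calls of later against passage 2 were 1372 with DESeq2's size factors in edgeR, 1355 with DESeq2 and 1729 with at least 10 reads in every library. They were 908 without a filter on low counts, 950 on the first strand column, 222 for passage 4 against passage 2 and 3 after the GC and length correction, where fewer genes were tested. Without the replicate block none passed (4868 at an unadjusted p under 0.05), and with passage as a slope none did (1266). With all 11 libraries for the spread 5309 passed. Chosen after seeing the data, all 11 libraries with the correction gave 683 calls, 371 higher and 312 lower, and mouse_285 alone gave 0 (2517 at an unadjusted p under 0.05); that fit has 1 library on each side, takes its spread from the late libraries and assumes that the lone libraries vary like them. Leaving out each library in turn gave 0 to 2579 calls: 2370 without passage 2 and 2579 without passage 4 of mouse_285, and the counts given in the report without those of mouse_283. The 42 calls between the animals became 4 with at least 10 reads in every library, 26 after correction, 22 on the strand column, 4 with all 11 libraries, 18 with all 11 and the correction, 0 with passage left out (148 at an unadjusted p under 0.05), and 0 to 39 with a library left out: 0 without passage 2 (1949 at an unadjusted p under 0.05) and 4 without passage 4 of mouse_285, and 1, 39 and 21 without passages 2, 3 and 4 of mouse_283. The 8 interaction calls became 4 with DESeq2's size factors, 4 after correction, 5 on the strand column, 1 with DESeq2 and 334 with all 11 libraries. The GC slope of 0.96 became 0.026 after correction, 0.037 with all 11 libraries and the correction, 0.43 in mouse_285 alone, and 0.44 to 1.37 with a library left out, the lowest without passage 2 of mouse_283. The sign turned for Klf6 in mouse_285 alone (log2 0.053), for Slc7a11 after correction (0.11, and 0.10 with all 11 libraries) and for Malat1 in mouse_285 alone (0.31) and without passage 2 of mouse_283 (with a library left out, -3.67 to 0.22). Beyond the settings whose construction gives it (fewer genes or libraries), the cause of these changes was not tested. With 2 residual degrees of freedom, changes below about the spread of these libraries were not detectable.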

Other observations

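Stress and metabolic genes were mixed. Of 22 unfolded protein response genes 5 fell and none rose, beside 9.86% of all tested genes that fell. Among them was Hspa5, the main chaperone gene of the endoplasmic reticulum, with 693, 139 and 128 CPM at passages 2, 3 and 4 of mouse_283 and 546 and 387 CPM at passages 2 and 4 of mouse_285 (edgeR log2 change -1.62, adjusted p = 0.01). The list median was 0.19, and 0.04 after the GC and length correction, beside 0.03 for all genes. Idi1, an enzyme of isoprenoid synthesis, had 121, 17.2 and 17.9 CPM and 95.8 and 61.9 CPM and fell by 1.92 (adjusted p = 0.00188), 1 of 2 falls among 22 cholesterol synthesis genes, a share near that of all genes. Of 23 glutathione and redox genes 1 rose and 1 fell, beside 2.17% rises and 9.86% falls over all tested genes. The rise was the peroxidase gene Gpx2, with 151, 666 and 569 CPM and 214 and 294 CPM (log2 change 1.33, adjusted p = 0.0396). None of these 3 genes passed after correction.

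A set of 3 genes known to respond to low oxygen had the library of passage 3 of mouse_283 and that of passage 4 of mouse_285 as their lowest. Vegfa stood at 275, 82.1 and 134 CPM in mouse_283 and 289 and 132 CPM in mouse_285 and fell by 1.25 (adjusted p = 0.0257). Adm had 13.6, 4.11 and 22.6 CPM and 19.6 and 3.07 CPM, and Ankrd37 12.0, 3.81 and 18.4 CPM and 23.1 and 2.73 CPM, neither past the test. Most of the 24 hypoxia and glycolysis genes went the other way at passage 3 of mouse_283. That library was the highest for 17 of them, beside 32.8% of all genes tested. The list median there was 0.81 above passage 2 on the log2 scale (corrected 0.39). Over the 3 later libraries the list median was 0.39 (corrected 0.17). None of the 24 rose and 1 fell, beside 2.17% rises and 9.86% falls over all tested genes. The 3 genes were chosen after their values were seen.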
